A study of Mus musculus with 12 samples.

Results

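The Schlafen genes are a mouse family named Slfn1 to Slfn14 with gaps. The 7 members described here, Slfn1, Slfn2, Slfn3, Slfn4, Slfn5, Slfn8 and Slfn9, were chosen by their names in the deposited table, 7 of its 53465 genes, with earlier results of the same libraries known. The choice rested on measured values of these libraries that were not recorded, so every fold change and call of a member below is a description, and no p is given for it. RNA-seq was performed on LSKs (Lin- Sca-1+ c-Kit+), the bone marrow fraction that holds hematopoietic stem cells (HSCs) and early multipotent progenitors. There were 4 groups of 3 libraries each. LSKs came from Tespa1+/+ or Tespa1-/- mice, either untreated or at day 9 after 1 intraperitoneal dose of 150 mg/kg 5-fluorouracil (5-FU), which kills cycling cells and drives HSCs into division. The mice were male, 8 to 10 weeks old. The knockout allele, Tespa1tm1Smoc, was backcrossed to C57BL/6 and is not restricted to blood cells, so a difference between genotypes need not arise in the LSKs themselves. Tespa1 encodes a protein of T cell receptor signaling, and the study asked what it does in HSCs under stress.

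Schlafen proteins share an N-terminal domain that binds nucleic acids, and cleaves RNA in some members. Of the 7 members, Slfn1 and Slfn2 are in group I, short proteins, and Slfn3 and Slfn4 in group II, of intermediate length. Slfn5, Slfn8 and Slfn9 are in group III, long proteins with a C-terminal helicase-like part. Many members are induced by type I interferon, which also acts on HSCs. Slfn1 was described as a brake on thymocyte growth, Slfn2 keeps resting T cells and monocytes quiescent, and Slfn4 is known from myeloid cells, in which interferon and Toll-like receptor signals induce it.

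All 7 members lie on chromosome 11 of GRCm38, between 82951349 and 83215154, a stretch of 263.8 kb. In order along the plus strand they are Slfn5, Slfn9, Slfn8, Slfn2, Slfn1, Slfn4 and Slfn3, with the pseudogene Slfn10-ps between Slfn8 and Slfn2. Among the 7 members, the group III genes thus stand at one end, and the genes of groups I and II at the other. Slfn14, which is not a member here, lies beyond Slfn3, at 83275110 to 83286726. Slfn8 and Slfn9 are on the minus strand and the other 5 on the plus strand.

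The sequences before the transcript starts are shown because the group III members and the other members differ in the motifs they hold. They are from RefSeq (GRCm38.p6), whose promoter table held all 7 members. Windows from 250 bases before to 50 bases after the start were searched on both strands for GAAANNGAAA, the core of the interferon-stimulated response element (ISRE). It was found in the windows of Slfn5, Slfn8 and Slfn9, and in no window of the other 4 members or of Slfn14. Of all 32851 windows in the table, 3.44% held it. The match of Slfn8 and that of Slfn9 have the same 10 bases and begin 48 and 45 bases before the start. For these 2 genes the 160 bases before the start are given, read 5' to 3' on the minus strand, with the match in capitals (Slfn8, chr11:83020811-83020970, - strand, and Slfn9, chr11:82991831-82991990, - strand).
Slfn8: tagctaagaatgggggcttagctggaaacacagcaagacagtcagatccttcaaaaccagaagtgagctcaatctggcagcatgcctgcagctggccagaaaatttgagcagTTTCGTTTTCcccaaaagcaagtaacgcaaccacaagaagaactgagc
Slfn9: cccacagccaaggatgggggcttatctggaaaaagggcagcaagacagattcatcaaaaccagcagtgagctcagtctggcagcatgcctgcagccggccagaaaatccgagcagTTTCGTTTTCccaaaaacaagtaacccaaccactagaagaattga
The match of Slfn5 begins 155 bases before the RefSeq start, at the edge of a run of A. It lies within the annotated span of Slfn5, which begins farther upstream, and within the span of the antisense gene Slfn5os, outside the annotated exons. Its 10 bases are shown in capitals with 10 bases on each side (chr11:82951937-82951966, + strand).
Slfn5: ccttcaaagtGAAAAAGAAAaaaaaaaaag
The windows of Slfn1, Slfn2, Slfn3 and Slfn4 were then read, and a stretch that they shared, CAGGAAGT or its reverse complement ACTTCCTG, was searched in all windows. It holds the GGAA core of sites for ETS family factors. It occurred in these 4 members, at 2 places in Slfn3, in none of the group III members, and in 3.33% of all windows. No match overlapped an ISRE match. The motif was picked from these very sequences, so its presence in all 4 is no result. The 160 bases before the start are shown with the matches in capitals (Slfn1, chr11:83116660-83116819, + strand. Slfn2, chr11:83064952-83065111, + strand. Slfn3, chr11:83191170-83191329, + strand. Slfn4, chr11:83175026-83175185, + strand). GENCODE M21 places no gene on any of these 4 stretches or on those of Slfn8 and Slfn9.
Slfn1: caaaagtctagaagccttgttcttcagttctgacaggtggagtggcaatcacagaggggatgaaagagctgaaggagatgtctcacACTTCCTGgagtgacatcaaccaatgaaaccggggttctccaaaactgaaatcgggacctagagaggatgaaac
Slfn2: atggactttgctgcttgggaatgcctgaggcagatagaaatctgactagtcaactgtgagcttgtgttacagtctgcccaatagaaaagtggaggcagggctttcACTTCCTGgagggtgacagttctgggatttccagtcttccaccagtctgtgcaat
Slfn3: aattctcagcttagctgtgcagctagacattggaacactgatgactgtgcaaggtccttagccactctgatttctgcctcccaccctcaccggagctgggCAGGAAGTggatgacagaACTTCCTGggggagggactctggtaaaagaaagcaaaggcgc
Slfn4: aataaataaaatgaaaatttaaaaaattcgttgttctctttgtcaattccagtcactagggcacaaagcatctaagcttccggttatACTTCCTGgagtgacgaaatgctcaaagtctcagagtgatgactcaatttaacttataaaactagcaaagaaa
Of 2 further motifs, the gamma-activated site TTCNNNGAA was found in no member's window (8.30% of all windows) and the AP-1 site TGANTCA in that of Slfn4 alone among the members (7.81% of all windows). All 4 motifs were fixed with these sequences in view. A match describes letters in a window and does not show a bound factor.

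Library totals ran from 22118154 to 28275079 counts. CPM below means counts scaled to a common library size, with TMM factors over the 12 libraries. Tespa1 reads were lower in Tespa1-/- LSKs but not absent: the means for Tespa1+/+ and Tespa1-/- were 46.5 and 34.8 CPM untreated, and 53.2 and 19.3 CPM after 5-FU (adjusted p = 0.0316 and 9.38e-05, edgeR). Where the deletion lies relative to the counted reads is not given in the sources used here. All 10 LSK markers, Kit and Ly6a (Sca-1) among them, were detected in every group. Their summed level ran from 1720 to 1807 CPM in untreated Tespa1+/+ LSKs, 1444 to 1500 CPM in untreated Tespa1-/- LSKs, 1473 to 1534 CPM in Tespa1+/+ LSKs after 5-FU, and 899 to 976 CPM in Tespa1-/- LSKs after 5-FU. Of the 14 neutrophil markers, which a lineage depletion and an LSK gate should remove, the summed level ran from 2.54 to 13.3 CPM in the other 9 libraries and from 1140 to 1144 CPM in Tespa1-/- LSKs after 5-FU. These are bulk samples, in which fewer cells of a type and less RNA per cell cannot be told apart.

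In untreated Tespa1+/+ LSKs the Schlafen genes were at unequal levels. Per length, as FPKM, Slfn9 was highest at 13.5 ± 0.851 (SD, n = 3), followed by Slfn8 at 11.2 ± 0.342, Slfn2 at 9.97 ± 1.76, Slfn5 at 7.04 ± 0.270 and Slfn3 at 2.57 ± 0.170. The libraries of Slfn8 and Slfn2 overlapped, and the other neighbours in this order did not. Slfn4 was at 0.0139 ± 0.0157 FPKM and Slfn1 had no count in any of the 3 libraries, which allows up to 0.0413 CPM at 3 counts over the group, for counting error only. After 5-FU the order in Tespa1-/- LSKs was another one, with Slfn2 first at 21.4 ± 0.689 FPKM and Slfn9 at 12.7 ± 1.14, followed by Slfn8 at 7.78 ± 0.531 and Slfn5 at 5.14 ± 0.347. Slfn4 stood at 4.03 ± 0.446, Slfn3 at 2.71 ± 1.38 and Slfn1 at 2.61 ± 0.195 FPKM. There the libraries of Slfn4 and Slfn3 overlapped, as did those of Slfn3 and Slfn1.

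**Figure D1:**
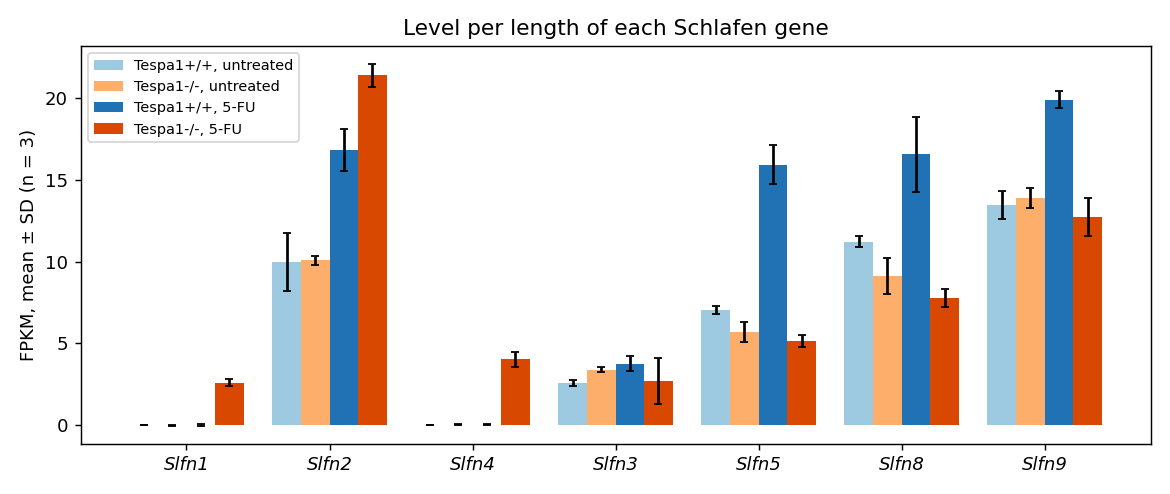
Mean FPKM (vertical axis, with SD over 3 libraries) of the 7 Schlafen genes in the 4 groups of LSKs. Slfn9, Slfn8 and Slfn5 have their tallest bar in Tespa1+/+ LSKs after 5-FU, and Slfn1, Slfn4 and Slfn2 in Tespa1-/- LSKs after 5-FU.

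The first comparison asks what loss of Tespa1 does to these genes without stress. In untreated LSKs, 5 members passed the filter on low counts, and none was called at an adjusted p below 0.05 in either direction (edgeR quasi-likelihood test), beside 1.64% of 17055 genes called higher and 3.59% called lower. With an unadjusted p below 0.05 there were 3, beside 18.5% of all genes tested in either direction, and DESeq2 called 1, Slfn8, as lower, beside 5.27% of all genes. Slfn5 had 54.2, 51.9 and 56.1 CPM in Tespa1+/+ libraries and 37.9, 45.3 and 47.0 CPM in Tespa1-/- libraries, a log2 fold change of -0.31 ± 0.098 (SE). Slfn8 had 80.6, 85.9 and 82.6 CPM against 73.5, 69.4 and 58.3 CPM, a log2 fold change of -0.31 ± 0.092. In both genes the 3 libraries of Tespa1-/- lay below those of Tespa1+/+. Slfn3 lay the other way without overlap, at 11.7, 10.8 and 12.4 CPM against 15.7, 14.4 and 15.8 CPM, with a log2 fold change of 0.39 ± 0.14. Slfn9 and Slfn2 had overlapping groups and log2 fold changes of 0.03 ± 0.069 and 0.01 ± 0.15. The genotypes thus did not overlap in 3 of the 5 members tested, beside 25.6% of all genes tested, in either direction.

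The second comparison is that of the genotypes at day 9 after 5-FU. All 7 members passed the filter and 5 were called, 2 higher and 3 lower in Tespa1-/- LSKs, beside 7.34% of 17239 genes called higher and 5.78% called lower. Slfn1 and Slfn4 passed it only through Tespa1-/- LSKs, so the 2 calls as higher are no separate result. The 3 group III members were all lower in Tespa1-/- LSKs. Slfn1 of group I and Slfn4 of group II were higher, at levels near 0 in the other groups. Slfn2 and Slfn3 were not called. The libraries of the genotypes did not overlap in 6 of the 7 members, Slfn3 being the other, beside 33% of all genes tested, in either direction.

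Slfn5, a group III member, had 109, 121 and 125 CPM in Tespa1+/+ LSKs after 5-FU and 36.2, 41.5 and 39.5 CPM in Tespa1-/- LSKs. The groups were far apart, and the level in Tespa1+/+ LSKs was 3.04-fold that in Tespa1-/- LSKs (log2 fold change -1.60 ± 0.088, called). Slfn8 had 130, 126 and 99.5 CPM in Tespa1+/+ libraries and 52.9, 60.6 and 57.5 CPM in Tespa1-/- libraries. The third Tespa1+/+ library was the lowest of its group yet above every Tespa1-/- library, and the log2 fold change was -1.06 ± 0.11 (called). Slfn9, the member with the most reads, had 158, 149 and 155 CPM against 110, 101 and 91.3 CPM, again without overlap, with the smallest log2 fold change of the 3, -0.62 ± 0.076 (called). Slfn8 and Slfn9 are close paralogs. Of the stretches of 50 bases in the transcripts of Slfn8, 9.30% also occur in Slfn9 and 10.1% in Slfn10-ps, so some of their reads cannot be assigned with certainty.

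Slfn10-ps, the pseudogene of the same group beside Slfn8, had 45.8, 45.4 and 29.5 CPM in Tespa1+/+ LSKs after 5-FU and 30.6, 24.5 and 26.1 CPM in Tespa1-/- LSKs. The groups overlapped at the third Tespa1+/+ library, which was also the lowest for Slfn8, and the log2 fold change of -0.58 ± 0.18 was not called (adjusted p = 0.0647, edgeR). Slfn14 had 22 counts over the 12 libraries and was not tested. The antisense gene Slfn5os had 42 counts over the 12 libraries, beside 18779 of Slfn5, with which it overlaps. Slfnl1, a relative on chromosome 4, was below 1.16 CPM in every library and was not called in any comparison.

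Slfn4 had 28.6, 33.1 and 35.6 CPM in Tespa1-/- LSKs after 5-FU and 0.234, 0.385 and 0.413 CPM in Tespa1+/+ LSKs after 5-FU. From 2424 against 26 counts over the groups, the ratio was 93.9, with an exact 95% interval of 63.9 to 144.0 that covers counting error only. Slfn1 was read 129, 120 and 117 times in Tespa1-/- LSKs after 5-FU. Its counts in the Tespa1+/+ group at day 9 were 0, 0 and 3. The ratio was 123 with a 95% counting interval of 41.7 to 598, and without the third Tespa1+/+ library, which holds the 3 counts, the level was at least 83.6-fold higher against a limit of 3 counts over the remaining 2 libraries (chosen after seeing the data). Both genes were called, and both were thus read in quantity in 1 of the 4 groups.

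That group was also the one with neutrophil transcripts. Of the 14 neutrophil markers, 12 were called higher and none lower in Tespa1-/- LSKs after 5-FU, beside 7.34% and 5.78% of all genes tested. The median log2 fold change was 7.81 beside -0.01 over all genes tested. Only 5 of the 14 passed the filter in untreated LSKs and 6 for 5-FU in Tespa1+/+ LSKs. The others passed it here only through Tespa1-/- LSKs after 5-FU, so their calls as higher are no separate result. S100a9, a subunit of the granulocyte protein calprotectin, had means of 1.29 CPM (Tespa1+/+) and 316 CPM (Tespa1-/-) there, and Ltf, the granule protein lactoferrin, had 0.715 and 152 CPM. At 0 in all 3 Tespa1+/+ libraries after 5-FU were Cd177, Retnlg and Fcnb. All 10 erythroid markers were called higher as well, with a summed level of 44.4 to 59.8 CPM against 397 to 412 CPM. The monocyte and macrophage markers summed to 528 to 562 CPM against 736 to 772 CPM, with 2 of 13 called higher and 2 lower. T and NK cell markers summed to 37.5 to 48.8 CPM against 81.5 to 90.7 CPM, with 3 of 11 tested called higher, and B cell markers to 287 to 299 CPM against 327 to 344 CPM, with 2 of 8 called higher. Fewer of the other lineage markers passed the filter for 5-FU in Tespa1+/+ LSKs. They were 8 erythroid, 12 monocyte and macrophage, 6 T and NK cell and 7 B cell markers. The rest passed it here only through Tespa1-/- LSKs. Of the LSK markers, 7 of 10 were called lower. The part of these other cells' transcripts in the levels of Slfn1 and Slfn4, and in the lower levels of Slfn5, Slfn8 and Slfn9, was not tested.

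Slfn2 had 29.7, 27.1 and 25.4 CPM in Tespa1+/+ LSKs after 5-FU and 37.0, 35.5 and 34.5 CPM in Tespa1-/- LSKs. The groups did not overlap, and the log2 fold change of 0.38 ± 0.11 was not called by edgeR but was called by DESeq2. Slfn3, the other group II member, had 14.3, 17.7 and 17.5 CPM against 6.29, 11.5 and 18.6 CPM. The 3 Tespa1-/- libraries held both the lowest and the highest value of the gene in the 12 libraries, and the log2 fold change of -0.45 ± 0.33 was not called. It was -0.13 without the first and -0.89 without the third of them, not called either way. Slfn3 and Slfn4 share 7.39% and 6.28% of their 50-base stretches with each other, and Slfn2 shares 4.27% of its own with Slfn4.

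**Figure D2:**
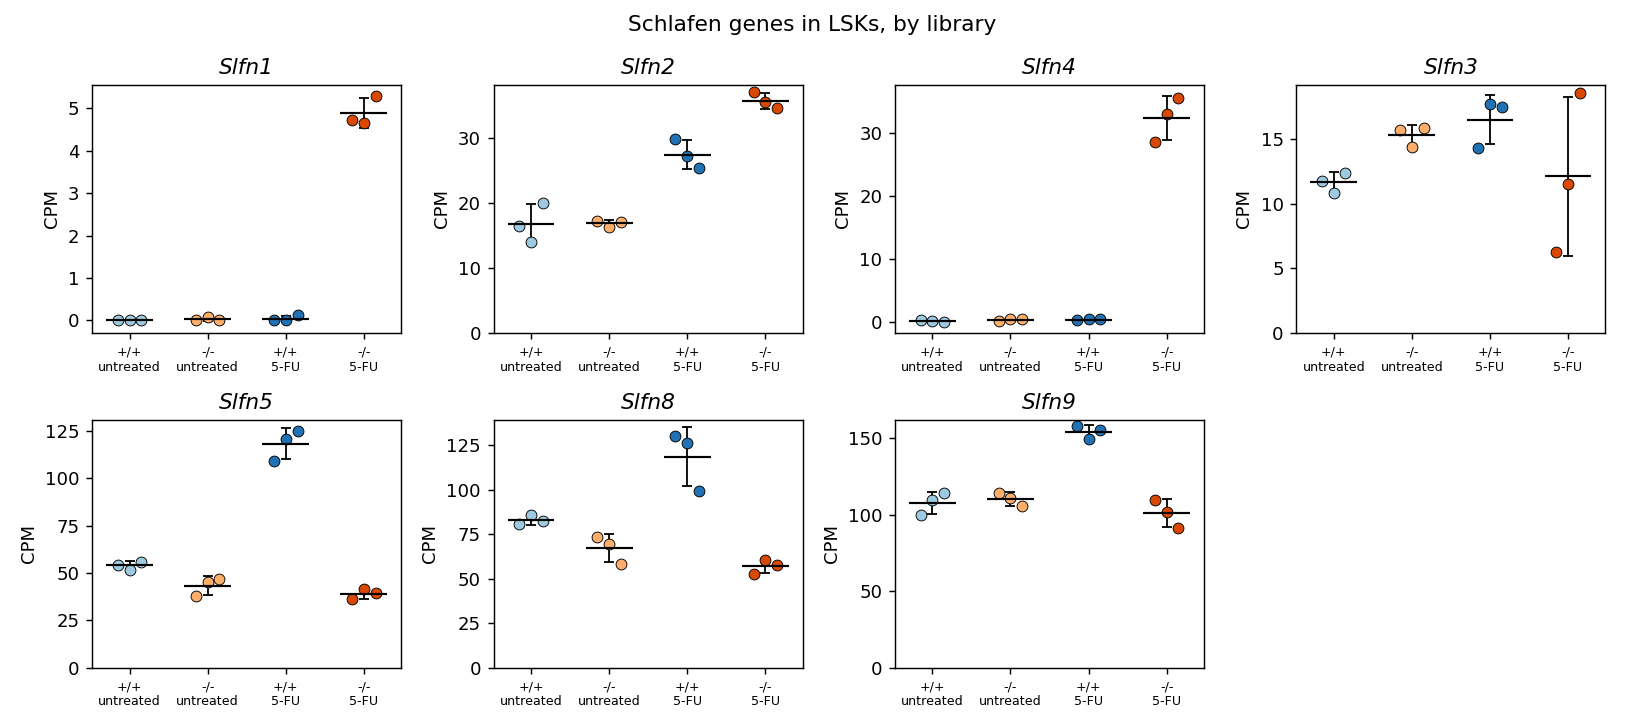
CPM (vertical axis, from 0, its own scale in each panel) of each Schlafen gene in the 12 libraries. Points are libraries, lines are group means and bars are SD (n = 3). Slfn1 and Slfn4 stand above 4 and 28 CPM only in the 3 libraries of Tespa1-/- LSKs after 5-FU, while Slfn5, Slfn8 and Slfn9 are highest in Tespa1+/+ LSKs after 5-FU.

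**Figure D3:**
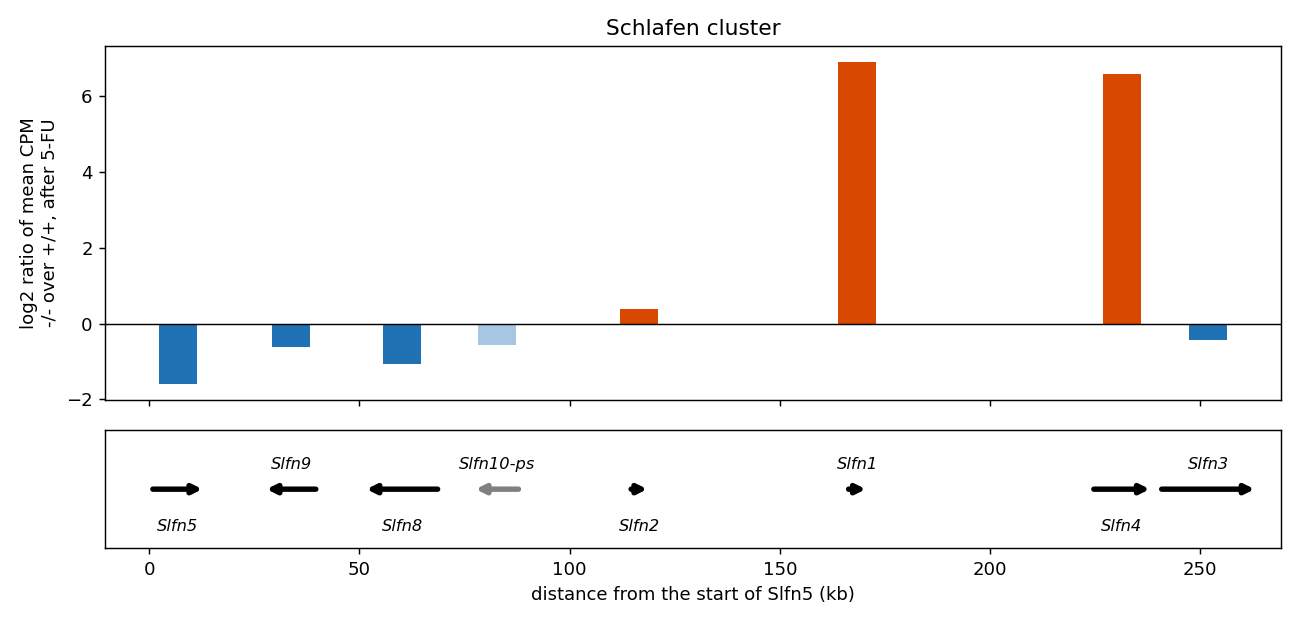
The Schlafen cluster, with distance from the start of Slfn5 in kb on the horizontal axis, arrows for genes in their direction of transcription, and above each the log2 ratio of mean CPM of Tespa1-/- over Tespa1+/+ LSKs after 5-FU. Slfn5, Slfn9, Slfn8 and the pseudogene Slfn10-ps (pale) lie side by side below 0, Slfn1 and Slfn4 stand at 6.89 and 6.56, and Slfn3, at the other end, is also below 0 at -0.44.

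The remaining pairwise comparisons ask how each genotype responded to 5-FU. They use separate libraries, and each shares a group with the comparisons of the genotypes above. In Tespa1+/+ LSKs, 4 of the 5 members tested were called higher at day 9 and none lower, beside 3.77% of 17002 genes called higher and 4.18% called lower. Slfn5 went from a mean of 54.1 to 118 CPM, a log2 fold change of 1.13 ± 0.084. Slfn9 went from 108 to 154 CPM and Slfn8 from 83.0 to 119 CPM, with log2 fold changes of 0.52 ± 0.072 and 0.52 ± 0.11. Slfn2 went from 16.8 to 27.4 CPM, a log2 fold change of 0.71 ± 0.16. In all 5 members tested, Slfn3 included, every library after 5-FU was above every untreated one, beside 14% of all genes tested. With 1 library left out, the call of Slfn2 held only without the third untreated library, at 0.59 to 0.85 over the 6 cases. That of Slfn8 held only without the second untreated or the third 5-FU library, at 0.44 to 0.63. Slfn3, at 0.50 ± 0.17, was not called. Slfn1 and Slfn4 did not pass the filter, with 0 and 9 counts over the untreated libraries and 3 and 26 after 5-FU.

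In Tespa1-/- LSKs, 3 of 7 members were called higher after 5-FU and none lower, beside 10.7% of 17228 genes called higher and 8.64% called lower. These were Slfn1, Slfn4 and Slfn2. Slfn1 and Slfn4 passed the filter here only through the libraries after 5-FU, so their calls as higher are no separate result. Slfn2 went from 17.2, 16.3 and 17.1 CPM to 37.0, 35.5 and 34.5 CPM, a log2 fold change of 1.07 ± 0.096. Slfn4 had 2, 10 and 8 counts in the untreated libraries, and its ratio was 110 with a counting interval of 71.0 to 180. Slfn1 had 0, 2 and 0 counts there, so the ratio of 166 has a counting interval of 45.6 to 1375. Without the library that holds the 2 counts, the level was at least 74.0-fold higher against a limit of 3 counts over the remaining 2 libraries. That library was chosen after seeing the data, and the bound covers counting error only. No group III member was called in this genotype. Their log2 fold changes were -0.16 ± 0.10 for Slfn5, -0.25 ± 0.099 for Slfn8 and -0.14 ± 0.075 for Slfn9. Without the third untreated library Slfn8 was called as lower, at -0.34. Slfn5 had overlapping groups there, at 37.9 to 47.0 CPM untreated and 36.2 to 41.5 CPM after 5-FU.

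**Figure D4:**
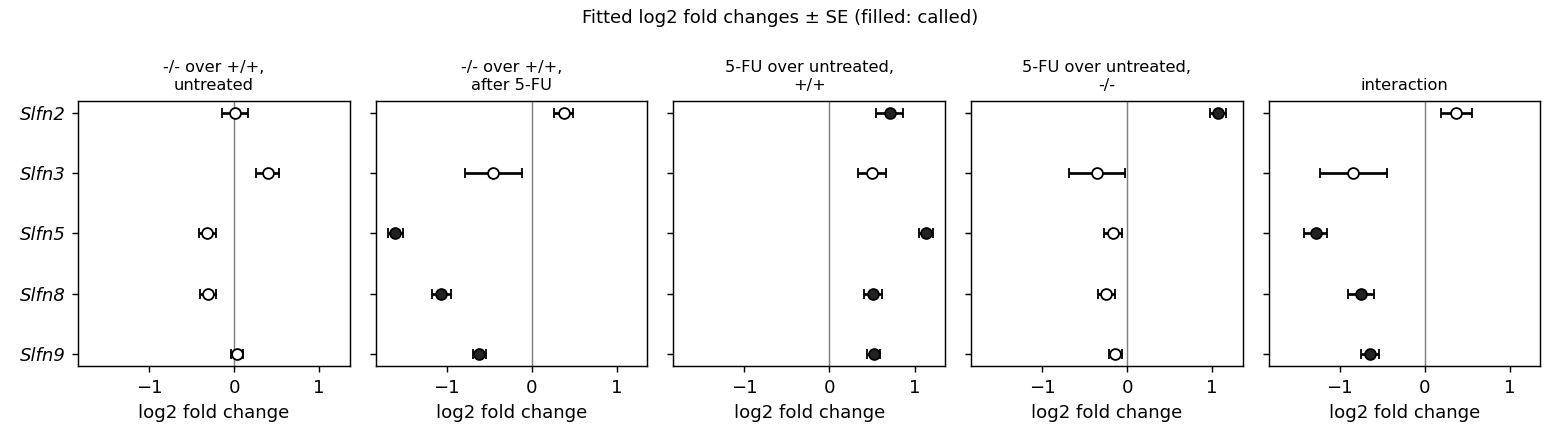
Fitted log2 fold changes (horizontal axis, with SE) of the 5 Schlafen genes tested in every comparison, in the 4 comparisons and the interaction. Filled points were called. Slfn5, Slfn8 and Slfn9 lie right of 0 for 5-FU in Tespa1+/+ LSKs, near 0 in Tespa1-/- LSKs and left of 0 in the interaction, and Slfn2 lies right of 0 for 5-FU in both genotypes.

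The interaction of genotype and 5-FU takes the difference between these 2 responses from the 12 libraries. It was called for 4 of 7 members, 1 higher and 3 lower, beside 3.02% of 18696 genes called higher and 1.99% called lower. The lower ones were Slfn5 at -1.28 ± 0.13, Slfn8 at -0.75 ± 0.15 and Slfn9 at -0.65 ± 0.11 on the log2 scale. Slfn4 passed the filter only through Tespa1-/- LSKs after 5-FU and was called higher at 5.31 ± 0.98. That value rests on 9 counts in untreated Tespa1+/+ LSKs. Without the first of those libraries, which holds 7 of them, it was 3.96 and not called. For Slfn1, with no count in that group, no interaction can be given. Slfn2 was not called (0.37 ± 0.18), nor was Slfn3 (-0.84 ± 0.39), which was called as lower without the third Tespa1-/- library after 5-FU (-1.30) and was at -0.54 without the first.

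Summed over the 7 members, the level was 273 ± 11 CPM in untreated Tespa1+/+ LSKs (SD, n = 3), 253 ± 7.85 CPM in untreated Tespa1-/- LSKs, 435 ± 10.9 CPM in Tespa1+/+ LSKs after 5-FU and 282 ± 6.45 CPM in Tespa1-/- LSKs after 5-FU. The highest of these sums was thus in Tespa1+/+ LSKs after 5-FU, where the lowest library had 422.7 CPM, while the highest library of the other groups had 288.3 CPM.

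A list of 54 interferon-stimulated genes without Schlafen members gives the setting for group III. All 54 were tested in each comparison. After 5-FU, 46 were called lower in Tespa1-/- than in Tespa1+/+ LSKs and none higher. The median log2 fold change was -0.76 for the list and -0.01 over all genes tested. In Tespa1+/+ LSKs, 34 were called higher after 5-FU and none lower (median 0.47, beside 0.01). In Tespa1-/- LSKs, 1 was called higher and 20 lower (median -0.24, beside -0.01). In untreated LSKs 5 were called lower by genotype and none higher (median -0.11, beside 0.01), and the interaction was called lower in 32 and higher in none (median -0.62, beside -0.02). The fitted response to 5-FU was positive in Tespa1+/+ and negative in Tespa1-/- LSKs for 36 of the 54, positive in both for 15 and negative in both for 3. The signs of Slfn5, Slfn8, Slfn9 and Slfn3 were those of the 36. The summed level of the list ran from 5795 to 5880 CPM in Tespa1+/+ LSKs after 5-FU and from 3585 to 3595 CPM in Tespa1-/- LSKs.

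**Figure D5:**
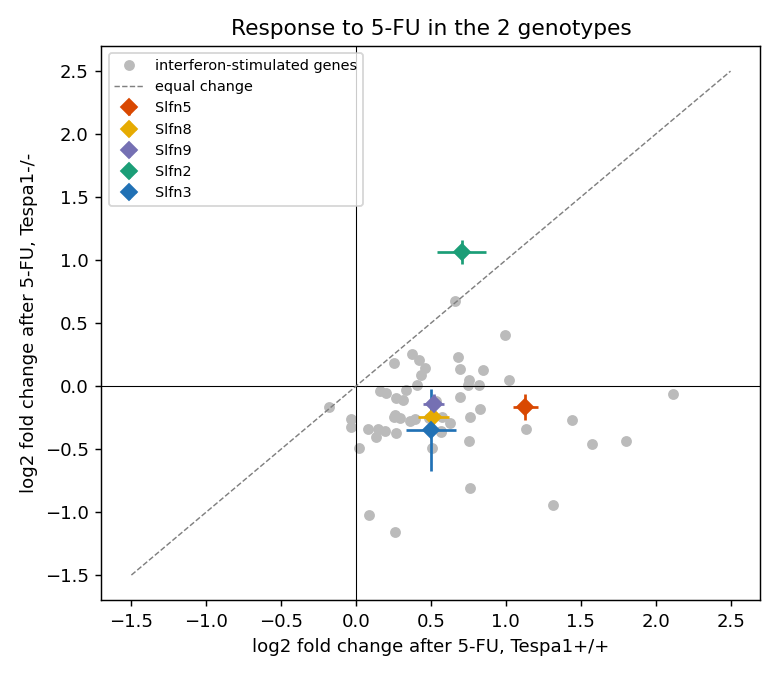
Log2 fold change after 5-FU in Tespa1+/+ LSKs (horizontal axis) and in Tespa1-/- LSKs (vertical axis) for 54 interferon-stimulated genes (grey) and 5 Schlafen genes (coloured, with SE). Below the dashed line of equal change lie 52 of the 54, with Slfn5, Slfn8, Slfn9 and Slfn3, and Slfn2 lies above it.

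Among the 3 members of that list with the most reads, Helz2, a coactivator helicase, was lower in Tespa1-/- LSKs after 5-FU (log2 fold change -0.61 ± 0.062, adjusted p = 0.000263, edgeR), and so was Ly6e (-0.26 ± 0.060, adjusted p = 0.0213). The immunoproteasome subunit Psmb8 was not called (-0.14 ± 0.066, adjusted p = 0.222). Of 16 genes for interferons, their receptors and signaling, 15 were tested after 5-FU, and 1 was called higher and 5 lower. The receptor kinase gene Jak1 was not called (-0.11 ± 0.051, adjusted p = 0.190, edgeR), nor was Irf8 (0.17 ± 0.084, adjusted p = 0.234). Over these tested genes the median log2 fold change was -0.03.

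The members also differed in which genes followed the most similar pattern over the 12 libraries, measured by Pearson's r of log2(CPM + 1) among 14926 genes with a mean of at least 1 CPM. The libraries share groups, so r describes mostly the group means. For Slfn5 the nearest were Ifit3 (r = 0.980) and Ddx58 (r = 0.967), for Slfn9 Herc6 (r = 0.955) and Ifit1 (r = 0.950), and for Slfn8 Eya2 (r = 0.945) and Oas3 (r = 0.943). Of these 6, all but Eya2 are interferon-stimulated. Ifit3, an antiviral RNA-binding family member, went from 16.2 to 56.2 CPM after 5-FU in Tespa1+/+ LSKs and stood at 14.1 and 10.5 CPM in Tespa1-/- LSKs. For Slfn1 the nearest were the neutrophil surface gene Cd177 and the chitinase-like gene Chil3 (r = 0.998 and 0.997), and for Slfn4 Cd177 and the eosinophil-associated ribonuclease gene Ear6 (r = 0.997 for both). These coefficients rest on the single group in which all of these genes are high. Cd177 had no count in the other 9 libraries and 30.9 CPM in Tespa1-/- LSKs after 5-FU. Slfn2 was nearest to Nucb1 (r = 0.979) and Plxdc1 (r = 0.975), and Slfn3 to Tmem186 and Arhgef4 (r = 0.872 for both). The nearest genes depended on the measure. Ranked by Spearman's rho, Ifit3 and Ddx58 came 61 and 15 for Slfn5, Herc6 and Ifit1 came 4 and 45 for Slfn9, and Eya2 and Oas3 came 1 and 6 for Slfn8. By the same measure Nucb1 and Plxdc1 came 2 and 22 for Slfn2, Tmem186 and Arhgef4 came 7 and 68 for Slfn3, and Cd177, Chil3 and Ear6 ranked from 132 to 887 for Slfn1 and Slfn4. With log2(CPM + 0.1) the Pearson ranks were 1 to 5 for Slfn2, Slfn3, Slfn5, Slfn8 and Slfn9, and 4 to 19 for Slfn1 and Slfn4. Between members, r was 0.998 for Slfn1 and Slfn4, and for Slfn5 with Slfn8, Slfn5 with Slfn9 and Slfn8 with Slfn9 it was 0.898, 0.902 and 0.847. Slfn2 stood between, with r of 0.777 to Slfn4 and 0.104 to Slfn5.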

How the data were processed

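RNA was measured in 12 libraries of sorted LSKs by stranded, paired-end, poly-A RNA-seq. The authors deposited whole-number counts per gene, not normalized, and FPKM values computed from them. The submitters' processing notes name CASAVA 1.8, HISAT2, StringTie, edgeR and GRCm38. The counting tool and its strand setting are not given in the sources used here, so reads of Slfn5 and of Slfn2 and their antisense genes may not be told apart.

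Tests across all genes used edgeR 4.0.16 in R 4.3.3 (filterByExpr with a minimum count of 10, TMM, glmQLFit and glmQLFTest), on the 6 libraries of each pairwise comparison and on 12 for the interaction. A gene was called at a Benjamini-Hochberg adjusted p below 0.05 over all genes tested. The fits were also run on simulated counts. Their spread was set below that fitted to these libraries and their outcome is not given, so they bear on no call here. FPKM served only to compare levels between genes. Intervals are exact 95% binomial intervals on group sums. Shared stretches of 50 bases were counted in GENCODE M21 transcripts. Groups came from the labels. The alternatives were DESeq2 1.42.0, no TMM, other filters, fold thresholds, a replicate block and leaving out each library. Other steps used Python 3.11.15, pandas 2.3.3, SciPy 1.17.1 and matplotlib 3.10.9.

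The members, the lists and the rule for named genes were chosen with earlier results of these data known. The rule names the members, other Slfn genes, the 2 genes most like each member, the 3 genes with the highest mean CPM in each list, the nearest neighbour on each side and Tespa1. A few genes that it names are not reported here. Nothing in the labels says whether libraries came from separate mice, so p-values measure the spread between these libraries, which may be technical. Median chi-square values between libraries of a group (1 degree of freedom) ran from 2.08 to 5.87, beyond sampling noise in every pair.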

Additional observations from a re-analysis of the deposited data

Results flagged for a closer look

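The genotype effect differed between untreated LSKs and LSKs after 5-FU, by the interaction term, in 4 of the Schlafen genes. The difference was 5.31 on the log2 scale for Slfn4, with levels near 0 in all groups but Tespa1-/- LSKs after 5-FU. Without the first untreated Tespa1+/+ library, which holds 7 of the 9 counts of that group, it was 3.96 and was not called. It was -1.28 for Slfn5. It was -0.75 for Slfn8. It was -0.65 for Slfn9.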

How the results depend on the processing

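Of the fitted values of single members under the alternatives, the interaction of Slfn1 left out, 394 kept their direction and side of the threshold, 11 lost a call, 4 gained one and 6 turned sign. The number of members called in untreated LSKs was 1 with DESeq2 in place of 0. With at least 10 counts required in every library, Slfn1 and Slfn4 were not tested, and the counts were 3 in place of 5 for genotype after 5-FU and 1 in place of 3 for 5-FU in Tespa1-/- LSKs. For 5-FU in Tespa1+/+ LSKs, the count of 4 became 2 with a fold change above 1.5 added to either an adjusted or an unadjusted p below 0.05, and ran from 2 to 3 with 1 library left out. It was 2, with Slfn5 and Slfn9, without the first Tespa1+/+ untreated library or without the first or the second Tespa1+/+ library after 5-FU. The call of Slfn2 there was lost in 5 of the 6 cases and that of Slfn8 in 4 of 6. For the interaction the leave-one-out count ran from 3 to 5. The log2 fold change of Slfn2 by genotype in untreated LSKs, 0.01, turned to -0.014 without a filter and lay at -0.11 to 0.15 with libraries left out, where it was negative in 4 of 6 cases (-0.0054, -0.11, -0.0064 and -0.0044). That of Slfn9, 0.03, turned to -0.017 without the first untreated Tespa1+/+ library, and reached 0.074 without the third. With the replicate number as a block, the counts were 0, 5, 3, 3 and 4 in the order of the comparisons, so the call of Slfn2 for 5-FU in Tespa1+/+ LSKs was lost and no other. The correlation of same-numbered libraries, -0.066 to 0.029, gave no sign that the numbers pair the samples. Depth limits what can be read for Slfn1, since a group with no count allows up to 3.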

Other observations

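The genes around the cluster were read in the same fits. Of 57 other genes that start within 500 kb of the members, 26 were tested in the comparison of genotypes after 5-FU, and 3 were called higher and 4 lower. The median log2 fold change was -0.09 beside -0.01 over all genes tested. The nearest tested gene before Slfn5, Unc45b, a myosin chaperone gene, was lower in Tespa1-/- LSKs after 5-FU (-1.87 ± 0.51, adjusted p = 0.0411, edgeR) at means of 4.20 and 1.15 CPM. The chemokine genes farther along the chromosome differed in direction. Ccl6 was higher in Tespa1-/- LSKs after 5-FU (2.92 ± 0.26, adjusted p = 0.000121, edgeR), while Ccl9 (-0.37 ± 0.094, adjusted p = 0.0317) and Ccl3 (-0.52 ± 0.13, adjusted p = 0.0253) were lower. The chemokines were picked from the neighbours after their values were seen.

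Slfn2 is known as a keeper of lymphocyte quiescence, and 8 other genes with that role were listed. In untreated LSKs, 5 of the 8 were called lower in Tespa1-/- LSKs and none higher. Their median log2 fold change was -0.61, beside 0.01 over all genes tested, and Slfn2 had overlapping groups there. Klf2, a transcription factor of resting T cells, had means of 458 and 262 CPM in untreated Tespa1+/+ and Tespa1-/- LSKs (-0.80 ± 0.058, adjusted p = 0.000186, edgeR), and Btg2, an antiproliferative gene, 244 and 162 CPM (-0.59 ± 0.077, adjusted p = 0.0041). After 5-FU, 1 of the 8 was called lower by genotype and none higher (median -0.06). That was Foxp1, at -0.73 ± 0.14 (adjusted p = 0.00783). The interaction was called higher in 5 of the 8 and lower in none (median 0.49, beside -0.02).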
